A study of Drosophila melanogaster with 33 samples.

Results

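The ionotropic receptor (Ir) genes of Drosophila melanogaster were followed in the linear RNA of fly heads across 6 ages and both sexes. Members were all linear rows whose FlyBase gene identifier carries a symbol made of Ir and a number, which gave 65 genes out of 16240 linear genes in the table. They comprise the 3 co-receptors Ir8a, Ir25a and Ir76b and 62 tuning receptors. Of the tuning receptors, 14 are known as antennal receptors, and the other 48 are called divergent here. A mean of at least 10 normalized reads over the 33 libraries was reached by 30 members, and these entered the tests. The remaining 35 stayed below that mean, and 18 of those did not reach 10 normalized reads in any library.

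Ionotropic receptors are ligand-gated cation channels that derive from ionotropic glutamate receptors and sit in the sensory cilia of chemosensory neurons. A tuning receptor sets what the neuron detects and needs a co-receptor to reach the cilium and form a working channel. In the fly antenna such complexes detect acids, amines, humidity and cool temperature, and many divergent receptors act in taste neurons of the proboscis, pharynx and legs, the last of which are not part of a head sample.

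All flies were wild type of the CantonS strain (CS in the labels), kept at 25 °C in a cycle of equal light and dark, with no transgene and no treatment besides ageing. The youngest group, called day 0 here, holds flies labelled as mated for 3 days, and the others were frozen at days 10, 20, 30, 40 and 50. Each of the 6 female groups had 3 libraries (18 in all), and the 15 male libraries fell into groups of 3 at days 0, 30 and 40 and of 2 at days 10, 20 and 50. Each biological replicate was a pool of heads from many flies. Positions are given in the dm6 coordinates of the annotation, and values are normalized reads, that is, reads divided by 1 size factor per library. The libraries held 28848182 to 94953552 linear reads (32 libraries in which whole reads could be recovered), so that 1 read was worth 0.66 to 2.21 normalized reads, and 3 reads, taken as the limit that a count of 0 allows, 1.98 to 6.62. All Ir genes together took 0.00853% to 0.0143% of the linear reads of a library. These limits cover counting error only. Male day 20 replicate 1 and male day 40 replicate 1 stood apart in GC content: their log2 values rose by 0.66 and 0.19 per 10 percentage points of exon GC relative to the mean of all libraries, against -0.12 to 0.11 in the other 31. Within these 31, the 6 day 0 libraries lay at 0.073 to 0.113 and the later ones at -0.12 to 0.058. The part of this difference in the contrasts with day 0 was not tested.

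Markers of the third antennal segment, the seat of the olfactory neurons, were uneven between libraries. The 14 listed genes summed to 10529 to 85421 normalized reads over the group means, lowest at day 0 in both sexes. Most of this was Obp19d, with 7082 of 10529 in males and 11902 of 15291.5 in females at day 0, and 37743 to 81503 later. Os-C, an antenna-specific secreted protein, ranged from 0 to 173 normalized reads, and Obp59a, a marker of humidity-sensing sensilla, was listed at 0 in 18 of 33 libraries. The 3 libraries highest in Os-C were male day 40 replicate 1 (173), female day 20 replicate 1 (78.5) and female day 50 replicate 3 (52.2), against a median of 5.16. Orco, the co-receptor of the odorant receptors, had its lowest group means at day 0 (88.8, 57.4 and 75.7 in females, 119.8, 117 and 93.2 in males) and ranged from 115 to 272 later. The markers did not move one way: lush, an odorant-binding protein of the same segment, held 559, 657 and 623 in females and 799.6, 815 and 897 in males at day 0 and 43.9 to 149 later, while Snmp1 was called in none of the comparisons with day 0 at days 10 and 50. How far the amount of antenna in a library sets the values below was not tested, and counts were also made without these 3 libraries.

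Most of the Ir genes with high values lie inside other genes. Of the 65 members, 10 lie wholly inside the span of another gene, and their median was 145 normalized reads per 1000 bases of exon, against 2.72 for the 49 members that share no base with another gene and 13.7 for 6 members that overlap one in part. Per 1000 bases, the highest values were those of Ir76a (464), Ir62a (435), Ir85a (419), Ir56a (386) and Ir47a (242), of which all but Ir76a lie inside another gene. Ir25a (92.6) and Ir76b (89.9) were the highest members that are free of overlaps, and their ranges over the 33 libraries overlapped. Ir93a (75.7), Ir68a (72.0), Ir51a (70.2) and Ir41a (56.5) followed. The third co-receptor, Ir8a, stood at 1.62, below most tuning receptors. Total RNA holds unspliced transcripts, and whether the counting used strand is not given in the sources used here, so reads of a nested receptor and of its host cannot be told apart.

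**Figure D1:**
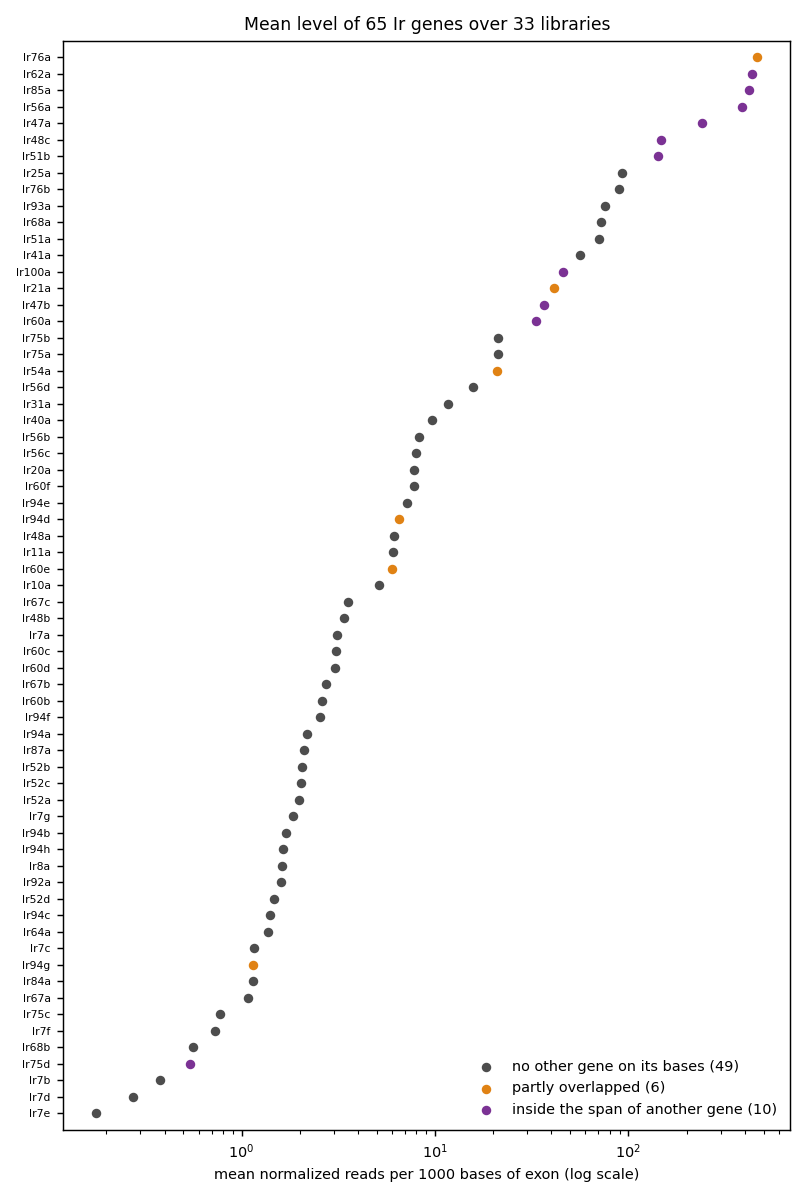
Mean normalized reads per 1000 bases of exon (x axis, log scale) of the 65 Ir genes (y axis, ordered by level) over 33 libraries. Grey points are the 49 genes that share no base with another gene, orange points 6 genes with a partial overlap and purple points 10 genes inside the span of another gene. Purple points fill 6 of the 7 highest ranks, and Ir25a (92.6) and Ir76b (89.9) lead the grey points.

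By limma, more Ir members were called higher than lower after day 0, while among all genes the lower calls were the more frequent ones. In females, 13 of the 30 tested members were called higher at day 10 than at day 0 and 3 lower (limma on log2 values, Benjamini-Hochberg adjusted p under 0.05 and a log2 change beyond 0.5), beside 15.5% higher and 18.3% lower of the 12685 genes tested. In males the counts were 11 higher and 2 lower, beside 15.8% and 16.5% of all genes. At day 50 females had 12 members called higher and 7 lower than at day 0 (all genes 21.0% and 24.9%), and males 15 higher and 3 lower (19.9% and 22.5%). The median log2 change of the 30 members was 0.55 in females and 0.38 in males at day 10, and 0.40 and 0.61 at day 50. The median of all tested genes was 0.005, 0.01, -0.04 and -0.03 in the same order. The order among all genes depended on the fit. EdgeR on recovered reads with a lower limit of a mean of 1 gave 14.6% higher and 15.6% lower at female day 10. It gave 16.2% and 14.3% at male day 10, 21.2% and 20.4% at female day 50 and 21.1% and 18.3% at male day 50. The 30 members include 9 that lie inside another gene, whose reads cannot be told apart from those of the host. All later ages were set against the same day 0 libraries.

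Between day 10 and day 50 fewer members moved. As a linear trend, given as the fitted log2 change over these 40 days, 6 members rose and 1 fell in females (11.4% and 10.5% of all genes). In males 8 rose and 3 fell (10.2% and 9.75% of all genes). Without male day 10 replicate 3 these became 6 and 1, beside 1233 and 1196 of 12685 genes. Scaling each library to its total linear reads in place of the size factors raised the median gene by 0.12 to 0.26 on the log2 scale in the contrasts of days 10 and 50 with day 0. Under that scaling, as under the other settings tried, no member called here was called in the opposite direction.

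**Figure D2:**
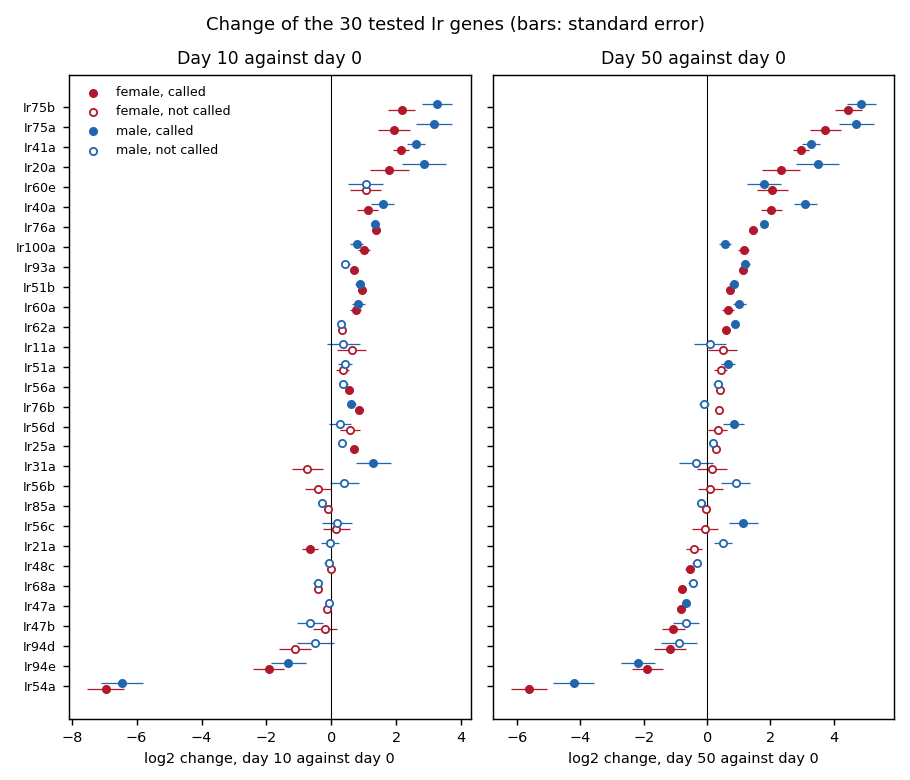
Log2 change (x axis) of the 30 tested Ir genes (y axis, ordered by the female change at day 50) at day 10 and at day 50 against day 0. Filled points were called, open points were not, and bars are standard errors. Ir75a, Ir75b, Ir41a, Ir20a and Ir40a lie to the right in both sexes at both ages, and Ir54a lies far to the left.

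Of the co-receptors, Ir25a (FBgn0031634, chr2L:4830846-4835300, minus strand, 10 exon blocks), the most broadly used one, was highest in females at day 10. Its normalized reads were 287, 258 and 269 in the 3 female libraries of day 0 and 423, 428 and 478 at day 10. These groups did not overlap, and the log2 change was 0.71 ± 0.09 (SE, adjusted p = 5.5e-08). In males the values were 236, 262 and 267 at day 0 and 323 and 318 at day 10, a change of 0.33 ± 0.10 (adjusted p = 0.0044) that was below the size required for a call. By day 50 female values had come back to 319, 322 and 340.3 and male values to 289 and 290.2, with changes from day 0 of 0.27 ± 0.09 (adjusted p = 0.007) and 0.19 ± 0.10 (adjusted p = 0.092) that were not called. Of the other ages, only male day 40 was called against day 0 (0.55 higher).

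Ir76b (FBgn0036937, chr3L:20108484-20111534, minus strand, 5 exon blocks), the co-receptor of amine receptors in the antenna and of many taste receptors, rose by day 10 in both sexes. Female libraries held 142, 157 and 148 normalized reads at day 0 and 283, 256 and 263 at day 10, a change of 0.84 ± 0.13 (SE, adjusted p = 2.2e-06). Male libraries held 142, 193 and 178 at day 0 and 259.6 and 259 at day 10 (0.61 ± 0.14, adjusted p = 6.8e-04). The groups were apart in both sexes, though the male call was lost without male day 0 replicate 1 (log2 change 0.48). At day 50 males were at 162 and 155, within the range of their own day 0, and the male trend from day 10 was -0.61 ± 0.14 (adjusted p = 7.0e-04). EdgeR on recovered reads did not call that trend. The female trend of -0.39 ± 0.11 (adjusted p = 0.0057) was not called, and neither was the sex difference of the change from day 0 to day 50 (-0.47 ± 0.19, adjusted p = 0.12).

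Ir8a (FBgn0052704, chrX:9232726-9236585, minus strand, 5 exon blocks), the co-receptor of acid-sensing receptors, was close to the limit of detection. Female day 0 libraries held 0.8, 2.21 and 4.54 normalized reads and male ones 0.815, 0.934 and 0, while the later libraries held 1.97 to 16.2. The highest of these was male day 40 replicate 1, which was also highest in Os-C. With a mean of 4.54 it did not enter the main test. In edgeR on recovered reads with a lower limit of a mean of 1, males were called higher at day 10 (log2 change 2.68, adjusted p = 0.023) and at day 50 (3.08, adjusted p = 0.0040), and females were not (0.27, adjusted p = 0.80, at day 10).

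**Figure D3:**
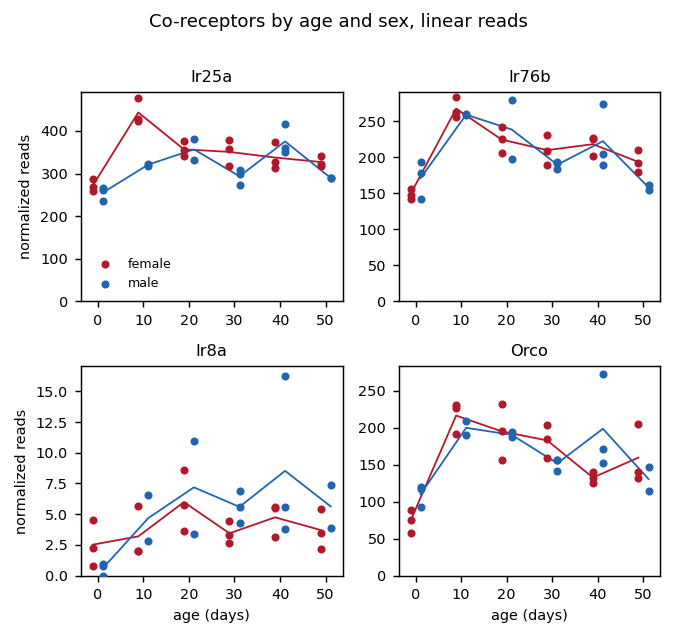
Normalized reads (y axis) of the 3 Ir co-receptors and of Orco by age in days (x axis). Points are single libraries, red for females and blue for males, and lines join the group means. Ir25a and Ir76b reach their female maximum at day 10, and Ir8a stays below 17 normalized reads in every library.

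Set against all tuning receptors, the co-receptors took a larger share at day 10 than at day 0. The 3 co-receptors made up 7.69% ± 0.052 (SD, n = 3) of all Ir reads in females at day 0 and 10.8% ± 0.81 (SD, n = 3) at day 10, and the share was 8.11% ± 0.36 (SD, n = 3) at day 50. In males it was 7.58% ± 0.82 (SD, n = 3) at day 0, 8.73% ± 0.21 (SD, n = 2) at day 10 and 6.13% ± 0.015 (SD, n = 2) at day 50. Summed co-receptor reads were 423 at female day 0, 714 at day 10 and 524 at day 50, whereas the sum of the antennal tuning receptors went from 953 through 1647 to 1945. In males the antennal sum went from 927 through 1672 to 2358 (means of 2 or 3 libraries). With the members that lie inside or across other genes left out, the median share of the co-receptors over the libraries was 36.8% in place of 8.38%. Among these members the share was also higher at day 10 than at day 0 in females (45.6% ± 2.2 against 37.4% ± 2.4, SD, n = 3), but at day 50 it was below day 0 (31.8% ± 1.3, SD, n = 3), the opposite order to that over all members. In males it was 37.7% ± 3.9 (SD, n = 3) at day 0, 39.3% ± 0.58 (SD, n = 2) at day 10 and 26.2% ± 0.049 (SD, n = 2) at day 50. The male means of days 0 and 10 thus differed by less than the SD of day 0. These shares are a description and were not tested. Among single genes, the profile of Ir25a over the 12 group means was most like those of C3G (r = 0.93), CG32668 (0.92), Pink1 (0.91), snoRNA:Psi28S-3305c (0.90) and asRNA:CR44368 (0.90), and that of Ir76b like those of CG34408 (0.91), CG4476 (0.91), vnd (0.91), PIG-T (0.91) and CG42366 (0.90). All these points share the same libraries, and Orco correlated with Ir25a at 0.75 and with Ir76b at 0.76 over the 33 libraries.

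The antennal receptors Ir75a and Ir75b, which detect short-chain acids such as acetic and butyric acid, had the largest rises of all tested members at day 50. Ir75a (FBgn0036757, chr3L:17815570-17817921, minus strand, 7 exon blocks) and Ir75b (FBgn0261402, chr3L:17818073-17820193, minus strand, 6 exon blocks) lie 151 bases apart, and neither shares a base with another gene. Their upstream windows of 150 bases are shown because these neighbours moved together, beside those of the antennal receptor Ir40a and the co-receptor Ir76b. All 4 were read from the Release 6 genome (coordinates of dm6) at the start of the gene model, which for receptors of low expression need not be the true start of transcription. The windows are chr3L:17817922-17818071 for Ir75a, chr3L:17820194-17820343 for Ir75b, chr2L:22214377-22214526 for Ir40a and chr3L:20111535-20111684 for Ir76b. Sequences are written 5′ to 3′ on the strand of the gene, with capitals for 2 motifs searched on either strand. The TATA box was searched as the letters TATAAA. For the initiator the letters were TCAGT.
Ir75a: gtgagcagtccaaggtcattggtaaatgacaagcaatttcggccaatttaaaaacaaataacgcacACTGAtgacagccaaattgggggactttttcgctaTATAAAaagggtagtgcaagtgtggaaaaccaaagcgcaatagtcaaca
Ir75b: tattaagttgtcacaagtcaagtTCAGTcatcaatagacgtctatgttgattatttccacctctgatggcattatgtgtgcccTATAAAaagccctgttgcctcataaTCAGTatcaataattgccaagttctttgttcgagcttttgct
Ir40a: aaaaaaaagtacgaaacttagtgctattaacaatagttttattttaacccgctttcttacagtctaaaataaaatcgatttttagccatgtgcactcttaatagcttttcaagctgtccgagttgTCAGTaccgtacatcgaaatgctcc
Ir76b: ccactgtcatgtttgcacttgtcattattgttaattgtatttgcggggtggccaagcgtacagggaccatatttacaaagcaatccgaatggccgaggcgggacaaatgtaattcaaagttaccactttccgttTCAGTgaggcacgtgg

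The windows of Ir75a and Ir75b both hold TATAAA, starting at base -49 and base -67 from the gene start, and those of Ir40a and Ir76b do not. TATAAA stood in the windows of 29.2% of 13945 protein-coding genes and of 20 of the 65 members (30.8%), and TCAGT in 27.4% of the genes and 21 members (32.3%). Both motifs were searched on both strands and do not overlap each other in letters, and a match is a description of the window only.

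Ir75a was near 0 at day 0 in both sexes. Its normalized reads were 4.80, 0 and 1.51 in females and 0.815, 1.87 and 4.80 in males at day 0, and 6.90, 17.7 and 4.50 in females and 15.7 and 46.4 in males at day 10. By day 50 females held 30.6, 33.7 and 30.4 and males 92.6 and 70.3. The day 50 values lay above all day 0 values in each sex, with log2 changes of 3.74 ± 0.50 (SE, adjusted p = 1.7e-07) in females and 4.71 ± 0.55 (SE, adjusted p = 2.4e-08) in males. Male values peaked at days 30 and 40, where libraries held 128, 103 and 101 and 118, 111 and 133, against 9.79, 19.2 and 15.8 and 32.3, 36.3 and 21.3 in females. Averaged over ages, males were above females by 1.57 ± 0.21 (SE, adjusted p = 4.0e-07).

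Ir75b had the same course. Day 0 libraries held 3.20, 0 and 0 normalized reads in females and 2.45, 0.934 and 1.92 in males, and day 50 libraries 28.4, 44.2 and 32.6 in females and 85.8 and 70.3 in males. None of these groups overlapped within a sex, and the log2 changes were 4.46 ± 0.42 (SE, adjusted p = 2.3e-10) and 4.87 ± 0.46 (SE, adjusted p = 4.5e-10). Males were above females by 1.70 ± 0.18 (SE, adjusted p = 4.7e-09) over all ages. The log2 values of Ir75a and Ir75b had r = 0.96 over the 33 libraries, a description of 2 genes that share libraries. Ir75c, which begins 299 bases beyond Ir75b, stayed at a mean of 1.44 normalized reads, and Cln3, 1450 bases from Ir75a on the other side, fell by 1.45 in females and 1.71 in males at day 50. Among the antennal markers, a10, a secreted antennal protein, moved like the pair, from 4.80, 17.7 and 4.54 normalized reads at female day 0 to 620.0, 586 and 602 at day 50 and from 6.52, 27.1 and 6.72 to 1064 and 1164 in males (r = 0.89 with Ir75a and 0.92 with Ir75b). The marker lush went the other way, with r = -0.64 and -0.65. Os-C had r = 0.43 and 0.40 with them, and leaving out the 3 libraries highest in Os-C kept all calls of both genes. That set keeps every day 0 library and most later ones, so it cannot tell how much of the rise goes with the amount of antenna. This was not tested.

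Ir41a (FBgn0040849, chr2R:4917519-5021955, plus strand, 8 exon blocks), a receptor for amines, rose from the first interval on. Female libraries held 37.6, 17.7 and 34.0 normalized reads at day 0, 142, 141 and 105 at day 10 and 238, 234 and 209.8 at day 50. Male libraries held 19.6, 16.8 and 16.3, 109.6 and 112 and 205 and 157 at these ages. No later library of either sex fell into the day 0 range, and the log2 changes at day 50 were 2.96 ± 0.25 (SE, adjusted p = 2.8e-11) in females and 3.29 ± 0.28 (SE, adjusted p = 3.9e-11) in males. The rise went on after day 10, with trends of 0.85 ± 0.22 (adjusted p = 0.0021) and 1.15 ± 0.27 (adjusted p = 8.7e-04). Male day 20 replicate 1 was the lowest later library (38.0 against 96.1 in its replicate). The authors counted all reads within a transcript as linear, so exon reads of circular RNAs of Ir41a may be among these values. Their part was not tested.

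Ir76a (FBgn0260874, chr3L:19799278-19803427, plus strand, 9 exon blocks), a receptor for phenylethylamine, was the highest member in normalized reads (mean 979). It stood at 398, 355 and 412 in females and 363, 380.1 and 401 in males at day 0, and at 1069.7, 1045 and 1082 in females and 1334 and 1320.5 in males at day 50. All later libraries lay above all day 0 libraries, and the changes at day 50 were 1.46 ± 0.06 (SE, adjusted p = 1.0e-18) and 1.80 ± 0.06 (SE, adjusted p = 1.6e-19). The gene overlaps CG14102 on the opposite strand by 297 bases, and SREBP, a regulator of lipid synthesis that lies next to it, also rose (1.32 in females and 1.03 in males). The part of this neighbour in the reads of Ir76a was not tested.

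Ir31a, a receptor for oxocarboxylic acids, was the one tested member whose trend after day 10 was called different between the sexes. At day 10 female libraries held 10.9, 11.8 and 9.0 and male ones 54.8 and 38.9, and at day 50 they held 19.6, 14.0 and 30.4 in females and 19.3 and 10.4 in males. The male trend fell (-1.30 ± 0.51, adjusted p = 0.04), the female one was 0.92 ± 0.43 (adjusted p = 0.074), and their difference, in a contrast added after the values were seen, was -2.22 ± 0.67 (adjusted p = 0.021). It was the 1 member called lower in that contrast, with 0 higher, beside 5.42% lower and 2.44% higher of all genes. The male trend was not called when any one of male day 10 replicates 1 and 3, male day 20 replicate 2, male day 40 replicate 2 and male day 50 replicate 2 was left out (adjusted p up to 0.23). It was also not called under scaling to total reads (adjusted p = 0.055) or with the replicate number as a block (adjusted p = 0.0505). The difference between the sexes was not called without male day 10 replicate 1 or without male day 50 replicate 2 (largest adjusted p = 0.10).

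**Figure D4:**
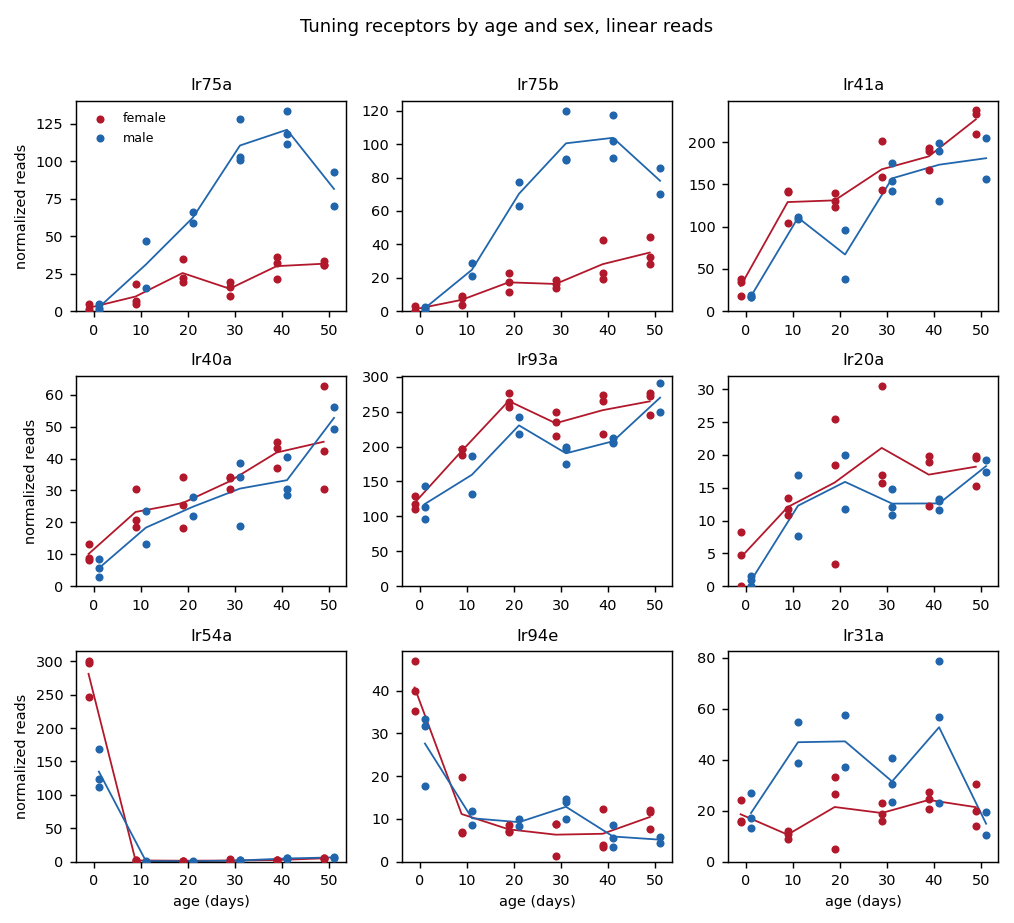
Normalized reads (y axis) of 9 tuning receptors by age in days (x axis). Points are single libraries, red for females and blue for males, and lines join the group means. Ir75a and Ir75b rise further in males, Ir41a, Ir40a, Ir93a and Ir20a rise in both sexes, and Ir54a and Ir94e are lost or reduced after day 0.

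The humidity and temperature receptors did not move together. Ir93a (FBgn0259215, chr3R:20851709-20859945, minus strand, 11 exon blocks), which works with Ir25a in both the humidity and the cool-sensing receptors, rose from 129.6, 110.3 and 118 normalized reads in females and 143, 114 and 96.1 in males at day 0 to 246, 272 and 276 in females and 249 and 291 in males at day 50. The groups did not overlap, and the changes were 1.14 ± 0.12 (SE, adjusted p = 4.8e-09) and 1.20 ± 0.14 (SE, adjusted p = 1.8e-08). Ir40a (FBgn0259683, chr2L:22189526-22214376, minus strand, 9 exon blocks), needed to sense dry air, rose from 8.80, 13.2 and 8.32 in females and 5.71, 8.41 and 2.88 in males to 30.6, 62.8 and 42.4 in females and 49.2 and 56.3 in males, by 2.02 ± 0.32 (SE, adjusted p = 3.5e-06) in females and 3.10 ± 0.36 (SE, adjusted p = 2.2e-08) in males. Every later library of a sex lay above its day 0 libraries for Ir40a. For Ir93a this held in females, while the male ranges of day 0 (up to 143) and of the later ages (from 133) overlapped.

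Ir68a (FBgn0036150, chr3L:11232972-11236218, minus strand, 7 exon blocks), needed to sense moist air, went the other way. It stood at 272, 252 and 189 in females and 286, 276 and 262 in males at day 0, and at 146, 126 and 135 in females and 198 and 201 in males at day 50. The groups were apart in both sexes, and the female change (-0.79 ± 0.13, adjusted p = 3.5e-06) was called, while the male one was -0.46 ± 0.14 (adjusted p = 0.0057), below the size for a call. Males were called lower than at day 0 at days 20, 30 and 40 (-0.68, -0.74 and -0.76), as were females at these ages. The difference between the sexes was 0.33 ± 0.19 (adjusted p = 0.31) and was not called. Ir21a, the cool-sensing receptor, was at 124, 169.9 and 128 in females and 105, 93.4 and 102 in males at day 0. Its female change at day 10 was -0.66 ± 0.25 (adjusted p = 0.023), a call that was lost without female day 0 replicate 2, without female day 10 replicate 3 and under scaling to total reads (-0.46 at the smallest), and the male trend of 0.80 ± 0.27 (adjusted p = 0.016) was lost when any one of male day 10 replicate 3, male day 20 replicate 1 and male day 50 replicate 1 was left out (0.49 at the lowest). An antisense RNA covers 2087 of the exonic bases of Ir21a.

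Ir54a (FBgn0034272, chr2R:17744101-17746005, plus strand, 1 exon block), a divergent receptor, was nearly lost after day 0. Libraries of day 0 held 298, 300.1 and 247 normalized reads in females and 169, 124 and 111 in males, and those of day 10 held 1.97, 2.95 and 0 in females and 1.30 and 0 in males. All 27 later libraries held 0 to 6.66, so the groups were far apart, and the changes at day 10 were -6.95 ± 0.58 (SE, adjusted p = 3.0e-11) and -6.46 ± 0.64 (SE, adjusted p = 1.5e-09). A fitted change at values this near 0 depends on the pseudocount and understates the fall. The gene shares 506 bases with sub on the opposite strand, which itself had a mean of 8.41. Within the low range, Ir54a was higher again at day 50 (5.46, 3.49 and 5.44 in females and 5.79 and 6.66 in males), a trend called in males (2.61 ± 0.62, adjusted p = 0.001) and, less firmly, in females (1.28 ± 0.51, adjusted p = 0.038), where the call was lost in 10 of 46 alternatives. These were edgeR (1.49) and DESeq2 (1.54), a pseudocount of 0.5, averaging female day 50 replicates 1 and 2, the set without the 3 libraries highest in Os-C, and any one of female day 10 replicate 3, female day 40 replicate 3 and female day 50 replicates 1 and 3 left out (0.81 to 1.28, adjusted p up to 0.21).

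Ir94e (FBgn0259194, chr3R:23405509-23407402, plus strand, 2 exon blocks), which marks a set of taste neurons in the labellum, fell too. It went from 40.0, 35.3 and 46.9 in females and 33.4, 17.7 and 31.7 in males at day 0 to 12.0, 11.6 and 7.61 in females and 5.79 and 4.44 in males at day 50, with changes of -1.89 ± 0.48 (SE, adjusted p = 0.0011) and -2.19 ± 0.54 (SE, adjusted p = 8.9e-04) and no overlap. The next gene, CG4374, 1281 bases away on the opposite strand, fell by 3.87 in females and 3.42 in males. Ir10a, just below the limit for testing (mean 9.21), stood at 39.2, 19.9 and 26.5 in females and 17.1, 12.1 and 10.6 in males at day 0 and at 9.82, 4.65 and 10.9 in females and 5.79 and 10.4 in males at day 50. By edgeR with the lower limit, only its female changes were called (-2.37, adjusted p = 2.0e-04, at day 10 and -1.74, adjusted p = 0.0025, at day 50).

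Ir20a (FBgn0031181, chrX:21477254-21478945, minus strand, 1 exon block), which modifies the response of Ir76b taste neurons to amino acids, rose from 4.80, 0 and 8.32 in females and 1.63, 0.934 and 0 in males at day 0 to 15.3, 19.8 and 19.6 in females and 17.4 and 19.2 in males at day 50. The changes were 2.34 ± 0.60 (SE, adjusted p = 0.0011) and 3.49 ± 0.67 (SE, adjusted p = 5.0e-05), and every male library after day 0 lay above those of day 0. Ir60e rose from 0.8, 4.41 and 3.03 in females and 3.26, 6.54 and 2.88 in males to 19.6, 6.98 and 16.3 in females and 18.3 and 14.8 in males (2.06 ± 0.48, adjusted p = 4.4e-04 and 1.81 ± 0.54, adjusted p = 0.0045). Of the 4 tested genes of the Ir56 group on chromosome 2R, Ir56d, which serves taste pegs of the labellum, and Ir56c were called higher in males at day 50 (0.83 ± 0.34, adjusted p = 0.031 and 1.14 ± 0.46, adjusted p = 0.031). The Ir56d call was lost without male day 0 replicate 3 or male day 50 replicate 1 (adjusted p up to 0.20), and the Ir56c call without male day 0 replicate 1 or 3 or male day 50 replicate 1 (up to 0.19). Ir56b, required for the attraction to low salt, was 0.56 ± 0.17 (adjusted p = 0.0071) higher in males over all ages. Its changes with age were not called by limma, and edgeR with a lower limit of a mean of 1 called it higher in males at day 50 (1.00, adjusted p = 0.048). The difference between the sexes fell below the size for a call without female day 40 replicate 2 or male day 30 replicate 3 and with a pseudocount of 5 (0.42 at the lowest). Ir11a was called in none of the comparisons by limma or by that edgeR fit, with values of 4.63 to 24.4 normalized reads. Ir94d was called lower by limma in females at day 50 (-1.18 ± 0.51, adjusted p = 0.039), where female day 50 replicate 2 held 1.16 normalized reads against 14.2 and 15.2. The call was lost when any one of female day 0 replicates 2 and 3 and female day 50 replicate 2 was left out (-0.23 without the last of these), with female day 50 replicates 1 and 2 averaged, under scaling to total reads, and with edgeR and DESeq2. The edgeR fit with the lower limit called Ir94d lower in females at day 10 instead (-1.29, adjusted p = 0.025).

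The 9 tested receptors that lie inside another gene are given beside their hosts, since their reads cannot be told apart. Ir62a, described as a calcium taste receptor, rose by 0.59 ± 0.07 (adjusted p = 1.0e-08) in females and 0.89 ± 0.07 (adjusted p = 3.2e-11) in males at day 50, and its host Iml1, on the same strand, by 1.18 and 1.34. Ir47a fell by 0.81 and 0.67, and Ir47b by 1.07 in females, while their host SLO2, a potassium channel gene on the same strand, changed by -0.43 and -0.23. The male Ir47a call was lost under scaling to total reads (-0.42). Ir48c fell by 0.56 in females, and its host ths by 0.75. The Ir47b call was lost without female day 50 replicate 1 (adjusted p = 0.064), and the Ir48c call without female day 0 replicate 3 or female day 50 replicate 1 and under scaling to total reads (log2 change -0.44 at the smallest). Over the 33 libraries, Ir51b and row had r = 0.89, Ir62a and Iml1 0.88, Ir48c and ths 0.86, Ir47a and SLO2 0.82 and Ir60a and nord 0.69.

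Other nested receptors had values that differed from those of their hosts. Ir56a was called higher in females at day 10 (0.53, adjusted p = 5.5e-04) and day 40 (0.54), and the day 10 call was lost without female day 10 replicate 2. At day 50 it was 0.42 ± 0.12 (adjusted p = 0.0038) in females and 0.33 ± 0.14 (adjusted p = 0.038) in males, neither called, where the serotonin receptor 5-HT1A that spans it on the opposite strand fell by 0.86 and 0.69. Ir100a rose from 48.0, 30.9 and 48.4 to 92.8, 79.1 and 113 in females (1.16 ± 0.18, adjusted p = 1.7e-06), and its host CG42233 changed by 0.03. The male change of Ir100a was 0.57 ± 0.20 (adjusted p = 0.013), a call that was lost without male day 0 replicate 3 or male day 50 replicate 2. In the same direction as their hosts, Ir51b rose by 0.71 ± 0.12 (adjusted p = 1.0e-05) and 0.84 ± 0.14 (adjusted p = 6.0e-06), more than row (0.27 and 0.38), and Ir60a by 0.66 ± 0.18 (adjusted p = 0.0021) and 1.01 ± 0.20 (adjusted p = 9.0e-05), more than nord (0.23 and 0.27). These differences between a receptor and its host were not tested, and without female day 50 replicate 2 the female change of Ir60a was 0.42 and no call. Ir85a, inside Pif1A, was not called in any comparison by limma or edgeR, with 664 to 1046 normalized reads, while Pif1A rose by 0.50 and 0.62. Male libraries of Ir85a nonetheless held 958 to 993 at day 0 and 664 to 879 later, without overlap. In females the ranges overlapped. Ir51a, which shares no base with another gene, was called higher at day 50 in males (0.65 ± 0.22, adjusted p = 0.012) and not in females (0.42 ± 0.20, adjusted p = 0.058), and the male call was lost without male day 0 replicate 2 or male day 50 replicate 2 (adjusted p up to 0.071).

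Between the sexes, few members were called. Averaged over the 6 ages, 4 of 30 members were higher in males (Ir75a, Ir75b, Ir31a and Ir56b) and 0 higher in females, beside 4.21% and 6.25% of all genes. At day 0 no member was called between the sexes (0 of 30 in limma, 4 at an unadjusted p under 0.05, and 2.22% higher and 2.99% lower in males of all genes). Without a call, Ir54a held 298, 300.1 and 247 normalized reads in females at day 0 against 169, 124 and 111 in males. At day 10 Ir75a, Ir75b and Ir31a were called higher in males (all genes 6.28% higher and 5.37% lower). At day 20 Ir75b, Ir31a and Ir68a were higher and Ir41a and Ir21a lower in males (all genes 4.89% and 11.7%), where male day 20 replicate 1 held 35.0 normalized reads of Ir21a against 106 in replicate 2. At days 30 and 40 Ir75a and Ir75b were higher in males (all genes 4.08% and 8.18% at day 30, 3.89% and 6.33% at day 40). The day 50 calls were Ir68a, Ir48c and Ir56c, all higher in males (all genes 4.38% and 6.94%). Ir75a and Ir75b were not called at day 50, but their male values still lay above the female ones. Ir75a held 92.6 and 70.3 in males against 30.6, 33.7 and 30.4 in females. For Ir75b these were 85.8 and 70.3 against 28.4, 44.2 and 32.6. The change from day 0 to day 50 was called different between the sexes for 0 members, beside 2.55% of genes with a larger and 3.45% with a smaller value in males. Of the 30 members, 6 had an unadjusted p under 0.05. The share of all genes at that cut was not counted, here or at day 0. EdgeR and DESeq2 on recovered reads called 1 member each, which was Ir21a in both (0.90 and 0.89 on the log2 scale, higher in males). Of all 12685 genes, edgeR called 423 higher and 487 lower, and DESeq2 404 and 523.

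Of the 35 members below the test limit, 17 reached 10 normalized reads in at least 1 library. The antennal receptors among the 35 were Ir64a, an acid receptor of the sacculus (mean 3.55), Ir92a, a receptor for ammonia and amines (3.26), Ir84a, which detects food odours that promote male courtship (2.21), Ir75c (1.44) and Ir75d (1.26). Ir75d shares 2098 exonic bases with COX6AL2, so its reads cannot be told apart from that gene. By edgeR with a lower limit of 1, 32 of the 35 could be tested, and 9 were called higher and 1 lower in females at day 50 (all genes under this rule 21.2% and 20.4%), and 4 higher and 1 lower in males (21.1% and 18.3%). At day 10 the counts were 4 higher and 2 lower in females (14.6% and 15.6%) and 2 higher and 1 lower in males (16.2% and 14.3%). Ir87a was called lower in both sexes at day 10, from 8.0, 11.0 and 7.57 in females and 12.2, 13.1 and 9.61 in males at day 0 to 0, 0.985 and 3.38 in females and 0 and 3.79 in males. Ir60c rose from 0.8, 0 and 1.51 in females and 0.815, 0.934 and 0 in males to 10.9, 6.98 and 6.52 in females and 8.68 and 7.40 in males at day 50, and Ir52b was called only in females, from 0, 0 and 0.757 to 8.73, 8.14 and 7.61. The other 11 of the 17 (Ir48a, Ir48b, Ir52a, Ir52c, Ir60b, Ir60d, Ir67b, Ir67c, Ir7a, Ir94a and Ir94f) had means of 3.55 to 7.52, and the 18 receptors that stayed below 10 everywhere had means of 0.324 to 3.60.

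Compared with related lists, the 9 tested antennal tuning receptors had 6 called higher and 1 lower in females at day 50, and 6 and 0 in males, with medians of 1.46 and 1.80. Over all genes tested the shares were 21.0% higher and 24.9% lower in females and 19.9% and 22.5% in males. The 13 listed ionotropic glutamate receptors, relatives of the family, had 2 higher and 5 lower in both sexes, with medians of -0.19 and -0.39. Of 11 tested third-segment markers, 5 were higher and 1 lower in females and 4 and 2 in males, and of 7 genes of Johnston's organ, the hearing organ of the second segment, 2 and 0 in females and 1 and 1 in males. In bulk heads, fewer neurons of a type and less RNA per neuron cannot be told apart.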

How the data were processed

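Total RNA of fly heads, depleted of ribosomal RNA, was sequenced with a directional library kit. The authors aligned reads to dm6 with STAR, counted linear reads per gene with featureCounts and searched circular RNAs as back-splice junctions, and the deposited signal values are reads divided by 1 DESeq2 size factor per library. For these tools no version, and for featureCounts no strand option, is given in the sources used here. The authors left out 2 male libraries as outliers, and these were not analysed here. The table holds 1 row per gene, and 16111 of 16240 linear identifiers matched a FlyBase name.

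Signal values were tested as log2(value + 1) with limma 3.58.1 (trend and robust empirical Bayes, R 4.3.3) on all 33 libraries, with 12 group means and no block, over the 12685 genes averaging 10 or more normalized reads, and p-values were adjusted by Benjamini-Hochberg over all of them. A call needed an adjusted p under 0.05 and a log2 change beyond 0.5, thresholds that the study also uses. Fold changes on this scale understate the change of low genes. In 32 libraries 100% of the values lay within 0.01 reads of a multiple of 1 step, and the reads so recovered were tested with edgeR 4.0.16 and DESeq2 1.42.0 as alternatives. Male day 20 replicate 1 could not be converted and is missing from those fits. The tests were run on simulated data with the same spread for all genes and changes set in female day 50 only. That setting does not cover members that are near 0 in some groups. Replicates are separate samples in the labels, and p-values measure the spread between them.

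The members and lists were chosen with earlier results of these data known. The 3 co-receptors, all members with a mean of at least 10, and below that all that reached 10 in some library are named, the others summarised. Exon lengths and overlaps came from BDGP6.54 and sequences from Release 6 of RefSeq. Alternatives were other pseudocounts (0.5 and 5), filters, scalings and tools, a replicate block and leaving out libraries. Averaging female day 50 replicates 1 and 2 was another. The study lists the same number of circular reads for both, though their linear read counts differ. GC content was that of all exons, known for 99.1% of the genes tested, and each slope is a straight-line fit over genes. Tables were handled with Python 3.11 (pandas).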

Additional observations from a re-analysis of the deposited data

Results flagged for a closer look

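The trend of Ir31a from day 10 to day 50 differed between the sexes in a test of the difference itself, with a male minus female value of -2.22 on the log2 scale over 40 days. Male libraries went from 54.8 and 38.9 normalized reads at day 10 to 19.3 and 10.4 at day 50, and female ones from 10.9, 11.8 and 9.0 to 19.6, 14.0 and 30.4. This contrast was chosen after the values were seen. By limma the difference was not called without male day 10 replicate 1 or without male day 50 replicate 2 (adjusted p = 0.081 and 0.10).

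The circular RNA rows, which the report does not use, hold 3 back-splice junctions of Ir41a. All have the same listed start, chr2R:4949676, with listed ends at 4955320, 4975866 and 4975991. In the 6 libraries of day 0 all 3 stood at 0, where a count of 0 allows up to 6.62 normalized reads at the shallowest depth. Their highest values in a later library were 14.0, 13.3 and 6.75 normalized reads, and 17, 21 and 8 of the 33 libraries held a read. The group means at day 50 were 13.0, 8.91 and 2.25 in females and 3.78, 5.34 and 4.49 in males. Linear Ir41a reads rose over the same ages. Exon reads of these circular RNAs may be counted among the linear reads, and their part was not tested.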

How the results depend on the processing

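Of 89 calls of single members across the comparisons, 63 held under every alternative and 0 reversed. With all genes of a mean of at least 1 normalized read, 62 members were tested in place of 30. In females at day 50, 29 were called in place of 19 (30 with no filter). Beside these, 3132 of 15310 genes were called higher and 3337 lower (3177 and 3348 of 16240 with no filter). In the female trend 14 were called under both of these filters and 12 by edgeR with a mean of at least 1, in place of 7. Among all genes, 1756 of 15310 rose and 1362 fell (1782 and 1361 of 16240 with no filter, 1825 and 1299 of 15310 by edgeR). That edgeR fit called 8 members between the sexes over all ages in place of 4, beside 918 genes higher and 906 lower of 15310. For the sex difference of the change from day 0 to day 50, a pseudocount of 5 gave 1 call in place of 0 (Ir54a). Ir21a was the 1 call by edgeR with either filter, by DESeq2 and without male day 20 replicate 1 and male day 40 replicate 1. Both libraries stood apart in GC content. Of 12685 or 15310 genes tested, these settings called 344 to 427 higher and 451 to 526 lower. Leaving out single libraries gave 7 to 12 calls in the male trend and 0 to 1 in that sex difference, where the call was Ir21a without either male day 20 library and Ir76b without male day 0 replicate 1. The median co-receptor share of Ir reads was 8.38%, 6.03% per 1000 bases of exon, and 36.8% among members free of overlaps, an alternative chosen after seeing the data, as was leaving out the 3 libraries highest in Os-C.

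With replicate number as a block, 16 and 12 members were called at day 10 in females and males, in place of 16 and 13. At day 50 these were 19 and 19, in place of 19 and 18. Of all 12685 genes, the block fit called 1971 higher and 2324 lower at female day 10 and 1987 and 2083 at male day 10. At day 50 it called 2664 and 3167 in females and 2519 and 2860 in males. Of single calls, Ir31a was no longer called in males at day 10 or in the male trend (adjusted p = 0.0505 for the trend). On average, same-numbered libraries of different groups did not deviate together (mean r = -0.002 over 166 pairs, against 0.001 over 332 other pairs). Single pairs ranged from -0.32 to 0.48 and from -0.48 to 0.28. These averages run over all ages and both sexes, so pairing of females and males of the same age was not tested. Members with means near 10 normalized reads rest on few reads.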
